A study of Homo sapiens with 6 samples.

Results

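The subunits of oxidative phosphorylation were followed as 55 genes chosen by symbol, 13 encoded by the mitochondrial genome (symbols starting with MT-) and 42 encoded in the nucleus, out of 62016 genes listed in each table. Of the nuclear members, 15 were counted under complex I (NDUFA4 among them by its name), 4 under complex II, 6 under complex III, 10 under complex IV and 7 under complex V. The mitochondrial members are 7 of complex I, 1 of complex III, 3 of complex IV and 2 of complex V. All 55 passed the authors' filter for testing in both JMJD1C tables. The symbols SDHD, NDUFB8 and COX7B each stand on a further row under another identifier, so the members were fixed by Ensembl identifier.

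RNA was sequenced from Kasumi-1 cells, an established line of myeloblasts from acute myeloid leukemia whose AML1-ETO fusion gene joins RUNX1 to RUNX1T1. The question was how depletion of JMJD1C, a protein of the KDM3 family of histone demethylases, changes RNA levels. The groups were cells given a virus for the short hairpin RNA JMJD1C shRNA63, cells given the hairpin JMJD1C shRNA95 and cells given Control shRNA, each collected 4 days after infection, with 2 libraries a group. A further table compares AML1-ETO shRNA with control shRNA, 1 library each, from another published series. All groups were infected with a hairpin virus, and no uninfected cells were part of the comparisons. The authors combined the 2 libraries of a group into 1 FPKM value (fragments per length of transcript and per size of library), so the spread between libraries enters only through their test, and whether single libraries of 2 groups overlap cannot be judged. Both hairpins were set against the same control libraries. Separate cultures are not stated for the 2 libraries of a group, and the spread behind the p-values may be technical.

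Oxidative phosphorylation couples the flow of electrons from NADH and succinate to oxygen with the making of ATP. Complexes I, III and IV pump protons across the inner mitochondrial membrane, complex II feeds in electrons from succinate, and complex V, the ATP synthase, is driven by the proton gradient. Each complex except complex II is built from subunits of both genomes. Mitochondrial mRNAs are cut from long transcripts of the heavy and light strands of the circular genome, while the nuclear subunits are transcribed singly and imported as proteins. Leukemic myeloid blasts are known to rely on this pathway.

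JMJD1C itself, the target, stood at 13.7 FPKM with shRNA63 and at 30.4 FPKM in its control (log2 fold change -1.15 ± 0.30 and q = 0.00214 in the authors' deposited table). With shRNA95 it stood at 25.1 FPKM, against 29.4 FPKM in its control (-0.23 ± 0.30, q = 0.938 in the authors' deposited table). Its mRNA therefore checks the label of the shRNA63 libraries but not that of the shRNA95 libraries. The error after ± was worked out as the size of a log2 fold change over its test statistic, here and below, except for the difference between hairpins. It is not the error that the deposited p implies: of the 42 nuclear members it was larger for 39 with each hairpin, and of the 13 mitochondrial ones it was smaller for 9 with each. The calls rest on the deposited p. Of the myeloid blast markers, CD34 measured 103 FPKM with shRNA63 against 151 FPKM in its control, and 249 FPKM with shRNA95 against 146 FPKM in its control. ELANE measured 3745 FPKM with shRNA63 against 1143 FPKM in its control, and KIT measured 134 FPKM with shRNA63 against 245 FPKM in its control. In the authors' deposited tables CD33 and ELANE were called higher and KIT lower with shRNA63, and CD34 was called higher with shRNA95. MPO was listed at 0 with a status that Cuffdiff gives to loci with too many fragments to estimate. All 7 erythroid markers lay at or below 0.094 FPKM and were not tested. Of the stromal markers, 0 of 5 reached 1 FPKM. Among the lymphocyte markers, CD79A was called lower at 0.948 FPKM with shRNA63 against 2.33 FPKM in its control, and CD3E at 0.122 FPKM with shRNA63 against 0.470 FPKM in its control, in the authors' deposited table. CD79B and CD3D, the most abundant of these markers in the controls, were not called. CD79B measured 7.16 FPKM with shRNA63 against 10.5 FPKM in its control, and 6.87 FPKM with shRNA95 against 10.1 FPKM. CD3D measured 2.45 FPKM with shRNA63 against 8.52 FPKM in its control, and 1.59 FPKM with shRNA95 against 8.26 FPKM. PAX5, not called, was lower with shRNA63 and higher with shRNA95. The part of these marker changes in the results below was not tested.

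The sequences of the mitochondrial members bear on how reads were assigned to them. The 13 genes are 207 to 1812 bases long, in GENCODE v29 (GRCh38), whose mitochondrial coordinates match the locus in the tables for 28 of the 37 genes of that genome; the others lie in loci that the tables merge. MT-ATP8 and MT-ATP6 share 46 bases, shown in capitals at the end of one (bases 8513 to 8572 of the mitochondrial genome, plus strand) and the start of the other (bases 8527 to 8586).

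MT-ATP8, last 60 bases: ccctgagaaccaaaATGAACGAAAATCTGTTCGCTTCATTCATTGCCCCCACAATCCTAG

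MT-ATP6, first 60 bases: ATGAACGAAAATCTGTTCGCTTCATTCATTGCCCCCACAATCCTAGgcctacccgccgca

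MT-ND4L and MT-ND4 share 7 bases, again in capitals (bases 10707 to 10766 and 10760 to 10819, plus strand).

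MT-ND4L, last 60 bases: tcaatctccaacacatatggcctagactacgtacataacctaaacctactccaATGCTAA

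MT-ND4, first 60 bases: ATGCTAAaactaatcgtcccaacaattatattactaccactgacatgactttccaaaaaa

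MT-ATP8, MT-ATP6 and MT-CO3 were estimated by the authors within 1 merged locus of 3 genes, and MT-ND4L and MT-ND4 within another of 2 genes. Reads in the shared bases cannot be told apart between the overlapping genes, and the values of these 5 members are uncertain for that reason. MT-ND6 is the 1 member on the minus strand. Its mRNA holds 35.6% G and 7.05% C, while the other 12 hold 6.28% to 16.2% G and 29.5% to 36.0% C. The starts of MT-ND5 (bases 12337 to 12396, plus strand) and of MT-ND6 (bases 14614 to 14673, minus strand), with G in capitals, show this difference between neighbours that converge on the genome.

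MT-ND5, first 60 bases: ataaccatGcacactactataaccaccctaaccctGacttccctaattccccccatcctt

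MT-ND6, first 60 bases: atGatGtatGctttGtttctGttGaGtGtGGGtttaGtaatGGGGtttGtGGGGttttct

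With shRNA63, 4 of the 13 mitochondrial mRNAs rose and 0 fell at q under 0.05 in the authors' deposited table, where 2.29% of all 18271 tested genes were called higher and 2.83% lower. With shRNA95, 4 of 13 rose and 0 fell in the authors' deposited table, where 2.59% of all 18006 tested genes were called higher and 1.82% lower. The called genes were MT-ND2, MT-ND3, MT-ND4 and MT-CO2 with shRNA63. They were MT-ND1, MT-ND2, MT-ND5 and MT-ND6 with shRNA95, at q values of 0.0412 to 0.0447 in the authors' deposited table. Of these calls, 3 of the 4 with shRNA63 and 4 of the 4 with shRNA95 fell on complex I. That complex holds 7 of the 13 mitochondrial members, and whether calls gather on it was not tested. In bulk RNA, a change in the share of cells of some kind and a change in RNA per cell cannot be told apart. Among nuclear genes of at least 50 FPKM, a range in which all 13 mitochondrial mRNAs lie, 74 of 3170 were called higher and 93 lower with shRNA63. These genes are not matched in level to the 13 mRNAs: their median was 88.7 FPKM with shRNA63, against 4136 FPKM. With shRNA95, 164 of 3173 such genes were called higher and 30 lower. At an unadjusted p under 0.05 in the authors' deposited tables, 6 of the 13 mitochondrial mRNAs were higher with shRNA63 and 7 of 13 with shRNA95. Of all tested genes, 13.4% and 12.3% had such a p in either direction. All 13 FPKM values were above control with both hairpins, except that MT-ATP8, MT-CO1, MT-CO3 and MT-CYB turned below control with shRNA95 when FPKM was rescaled to an equal sum outside the mitochondrial genome.

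**Figure D1:**
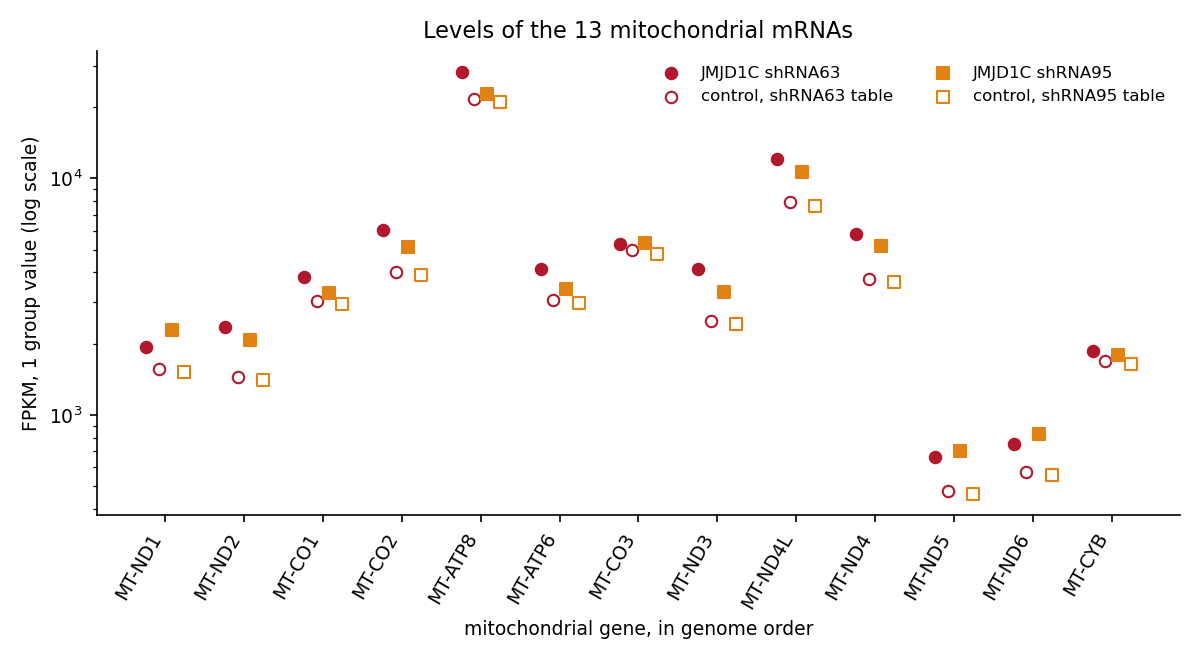
FPKM on a log axis of the 13 mitochondrial mRNAs in genome order, 1 value a group, with filled points for JMJD1C shRNA63 and shRNA95 and open points for the control value of the same table. Filled points lie above their open partners, by least for MT-CO3 with shRNA63 (5286 against 4956 FPKM) and for MT-ATP8 with shRNA95 (22779 against 21046 FPKM); with shRNA95, MT-ATP8, MT-CO1, MT-CO3 and MT-CYB turn below control under equal summed FPKM outside the mitochondrial genome.

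The mitochondrial subunits of complex I form the membrane arm, which carries out proton pumping. MT-ND1 (ENSG00000198888, bases 3307 to 4262), which lies where the arm meets the quinone site, measured 1944 FPKM with shRNA63 against 1567 FPKM in its control, with 0.31 ± 0.16 and q = 0.457 in the authors' deposited table. With shRNA95 MT-ND1 measured 2278 FPKM against 1520 FPKM in its control, and rose by 0.58 ± 0.17 in the authors' deposited table (q = 0.0412). MT-ND2 (ENSG00000198763, bases 4470 to 5511), one of the antiporter-like pump subunits, measured 2351 FPKM with shRNA63 against 1446 FPKM in its control (0.70 ± 0.15, q = 0.00704 in the authors' deposited table). It was also higher with shRNA95, at 2081 FPKM against 1402 FPKM in its control (0.57 ± 0.16, q = 0.0447 in the authors' deposited table). MT-ND3 (ENSG00000198840, bases 10059 to 10404), a small subunit with a loop that moves between the states of the enzyme, measured 4146 FPKM with shRNA63 against 2490.2 FPKM in its control. Its log2 fold change of 0.74 was the highest of the 13 with shRNA63, with q = 0.00214 in the authors' deposited table. With shRNA95 MT-ND3 measured 3312 FPKM, against 2415 FPKM in its control, and did not pass the test in the authors' deposited table (0.46, q = 0.145).

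MT-ND4 (ENSG00000198886), another antiporter-like subunit, measured 5832 FPKM with shRNA63 against 3754 FPKM in its control (0.64 ± 0.28, q = 0.0333 in the authors' deposited table). With shRNA95 it measured 5149 FPKM, against 3639.9 FPKM in its control (0.50 ± 0.32, q = 0.273 in the authors' deposited table). MT-ND4L, a short subunit whose gene runs into MT-ND4, measured 12076 FPKM with shRNA63 against 7911 FPKM in its control, and 10619 FPKM with shRNA95 against 7669.7 FPKM in its control. Its fold changes were of a like size to those of MT-ND4, 0.61 and 0.47, but q was 0.769 and 0.962 in the authors' deposited tables. MT-ND5 (ENSG00000198786), the largest pump subunit, had the lowest level of the 13 in every group. It measured 662 FPKM with shRNA63 against 477 FPKM in its control (0.47 ± 0.18, q = 0.0971 in the authors' deposited table), and 703 FPKM with shRNA95 against 463 FPKM in its control (0.60 ± 0.20, q = 0.0429). MT-ND6 (ENSG00000198695, bases 14149 to 14673), the product of the other strand, measured 750.4 FPKM with shRNA63 against 571 FPKM in its control (0.39 ± 0.13, q = 0.226 in the authors' deposited table). With shRNA95 MT-ND6 measured 833 FPKM against 554 FPKM in its control and rose by 0.59 ± 0.14 in the authors' deposited table (q = 0.0421). Strandedness is not stated, so whether reads of the opposite strand were counted with MT-ND6 is not known. The median log2 ratio of the 7 complex I mRNAs was 0.61 with shRNA63 and 0.57 with shRNA95. Here and below, a ratio is log2 of FPKM + 1 over FPKM + 1.

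Of the other 6 mitochondrial mRNAs, MT-CO2 passed the test with shRNA63 and none did with shRNA95. MT-CO2 (ENSG00000198712, bases 7586 to 8269), the subunit that takes electrons from cytochrome c, measured 6067 FPKM with shRNA63 against 4016 FPKM in its control (0.60 ± 0.15, q = 0.0228 in the authors' deposited table). With shRNA95 it measured 5132 FPKM, against 3896 FPKM in its control (0.40 ± 0.16, q = 0.325 in the authors' deposited table). MT-CO1, the catalytic subunit with the heme and copper centre, measured 3840.2 FPKM with shRNA63 against 3040.3 FPKM in its control (0.34 ± 0.18, q = 0.424 in the authors' deposited table). With shRNA95 MT-CO1 measured 3289 FPKM, against 2948 FPKM in its control (0.16 ± 0.21, q = 0.989 in the authors' deposited table). MT-CO3, the third core subunit of cytochrome c oxidase, measured 5286 FPKM with shRNA63 against 4956 FPKM in its control, and 5330.3 FPKM with shRNA95 against 4806 FPKM in its control. Its fold changes were 0.09 ± 0.34 and 0.15 ± 0.39 in the authors' deposited tables. MT-CYB, the cytochrome b of complex III, measured 1857 FPKM with shRNA63 against 1684 FPKM in its control, and 1796 FPKM with shRNA95 against 1634 FPKM in its control. Both fold changes were 0.14 in the authors' deposited tables, with 95% intervals of -0.16 to 0.44 for shRNA63 and -0.19 to 0.47 for shRNA95.

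MT-ATP6, the proton channel subunit of the ATP synthase, measured 4136 FPKM with shRNA63 against 3056 FPKM in its control, and 3416 FPKM with shRNA95 against 2963 FPKM in its control. Its fold changes were 0.44 ± 0.25 and 0.21 ± 0.30 in the authors' deposited tables. MT-ATP8, a small subunit of the membrane part of the same enzyme, measured 28206.5 FPKM with shRNA63 against 21707 FPKM in its control, and 22779 FPKM with shRNA95 against 21046 FPKM in its control. Its fold changes were 0.38 and 0.11 in the authors' deposited tables, with q = 0.977 and 0.998. The error from the statistic and the error that the p implies were 0.28 and 0.20 for MT-ND4 with shRNA63, and 0.34 and 0.24 for MT-CO3, from the authors' deposited table. They lay furthest apart for the shortest mitochondrial genes. For MT-ATP8 with shRNA63 they were 0.079 and 0.49, and for MT-ND4L 0.16 and 0.49, from the authors' deposited table, so no error is given above for MT-ATP8, MT-ND4L and MT-ND3.

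**Figure D2:**
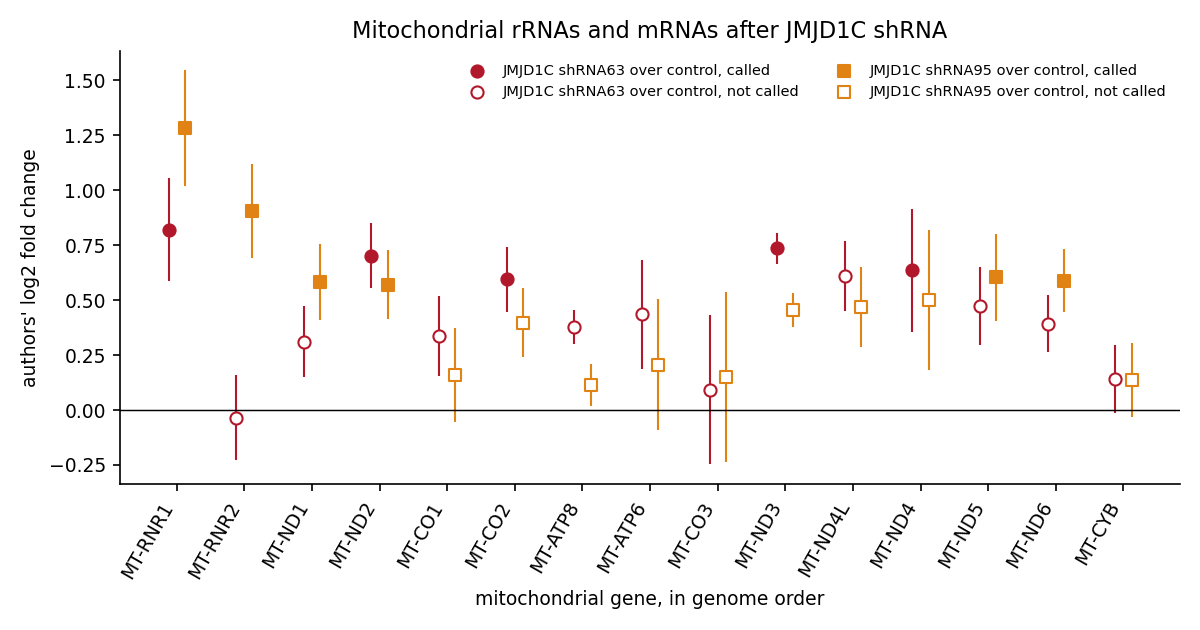
Log2 fold changes from the authors' deposited tables of the rRNAs and mRNAs of the mitochondrial genome in genome order, with bars for the error from the test statistic (narrower than the p implies for 9 of the 13 mRNAs, most of all for MT-ND3, MT-ND4L and MT-ATP8) and filled points for q under 0.05. The mRNAs lie between 0.09 and 0.74 with shRNA63 and between 0.11 and 0.60 with shRNA95; MT-RNR2 is near 0 with shRNA63 (-0.04) and at 0.91 with shRNA95, and the 4 lowest mRNAs of shRNA95 turn negative under equal summed FPKM outside the mitochondrial genome.

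None of the 42 nuclear members passed the test with either hairpin at q under 0.05 in the authors' deposited tables, which called 5.12% of all tested genes with shRNA63 and 4.4% with shRNA95. An unadjusted p under 0.05 was given to 2 of 42 (4.76%) with shRNA63 and to 7 of 42 (16.7%) with shRNA95 in the authors' deposited tables, beside 13.4% and 12.3% of all tested genes. Taken in either direction, the share of nuclear members was thus below that of all genes with shRNA63 and near it with shRNA95. Those with shRNA63 were UQCRQ, higher, and ATP5A1, lower. Those with shRNA95 were NDUFA1, NDUFA4, SDHB, SDHC, UQCRQ, COX5A and COX6C, all higher, of which COX5A is named because its p was seen to be low. Of all 18006 genes tested with shRNA95, 1288 were higher and 918 lower at such a p. Among nuclear genes of at least 50 FPKM, 410 of 3173 were higher and 80 lower. The median log2 ratio of the nuclear members was -0.00024 with shRNA63, with 21 above and 21 below 0, and 0.24 with shRNA95, with 34 above and 8 below 0. Under equal summed FPKM outside the mitochondrial genome these splits became 17 above and 25 below with shRNA63, and 26 above and 16 below with shRNA95. All measured genes had medians of 0.0087 with shRNA63 and 0.032 with shRNA95. Nuclear genes of at least 50 FPKM, the range in which most members lie, had medians of -0.012 and 0.13. The errors from the statistic of the nuclear members had a median of 0.274 with shRNA63 and 0.280 with shRNA95, and reached 1.92 and 2.58. The errors that the p implies had medians of 0.208 with both hairpins and reached 0.879 and 0.903, against medians of 0.182 and 0.193 among the mitochondrial members. Of the 42, 26 lie in a locus that the tables share with at least 1 other gene, and their values carry the uncertainty of that split.

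Among the nuclear subunits of complex I the medians were -0.037 with shRNA63 and 0.25 with shRNA95. Under equal summed FPKM outside the mitochondrial genome they were -0.072 with shRNA63 and 0.064 with shRNA95, with 9 of 15 above 0. NDUFA4, counted here by its name but since found in cytochrome c oxidase (complex IV), had the highest ratio with shRNA63. It measured 553 FPKM with shRNA63 against 438 FPKM in its control, and 574 FPKM with shRNA95 against 425 FPKM in its control (0.34 ± 0.24 and 0.43 ± 0.23 in the authors' deposited tables). NDUFS3, a core subunit of the matrix arm, had the lowest with shRNA63, 134 FPKM against 198 FPKM in its control, with a wide error (-0.56 ± 0.91 in the authors' deposited table, where the p implies an error of 0.61). NDUFS3 with shRNA95 measured 191 FPKM, against 192 FPKM in its control. NDUFA1, a small X-linked subunit of the membrane arm, had the highest ratio with shRNA95, 200.02 FPKM against 137 FPKM in its control (0.54 ± 0.27, q = 0.0650 in the authors' deposited table). With shRNA63 it measured 175 FPKM, against 141 FPKM in its control, the highest ratio after NDUFA4. NDUFS1, the large iron-sulfur subunit of the matrix arm, had the lowest ratio with shRNA95, 25.8 FPKM against 27.1 FPKM in its control. The log2 fold change that the authors' deposited table gives for it, -0.20 ± 2.58 (0.56 as the p implies), departs from its FPKM ratio of -0.07, as happened for 22 genes of that table by more than 0.01.

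Complex II, which is succinate dehydrogenase and has nuclear subunits only, had medians of -0.15 with shRNA63 and 0.23 with shRNA95 (0.041 with shRNA95, 2 of 4 above 0, under equal summed FPKM outside the mitochondrial genome). SDHB, its iron-sulfur subunit, measured 216 FPKM with shRNA63 against 278 FPKM in its control (-0.36 ± 0.22, q = 0.377 in the authors' deposited table). With shRNA95 SDHB measured 363 FPKM, against 269.7 FPKM in its control (0.43 ± 0.22, q = 0.244 in the authors' deposited table). It was thus the lowest of the 4 subunits with one hairpin and the highest with the other. SDHC, a heme-binding membrane anchor, measured 183 FPKM with shRNA63 against 149 FPKM in its control, and 193 FPKM with shRNA95 against 144 FPKM in its control. SDHA, the flavoprotein that oxidizes succinate, measured 78.5 FPKM with shRNA63 against 96.7 FPKM in its control, and 73.1 FPKM with shRNA95 against 93.8 FPKM in its control. Neither SDHC nor SDHA passed the test.

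In complex III the medians were -0.024 with shRNA63 and 0.18 with shRNA95 (-0.0086 with shRNA95 under equal summed FPKM outside the mitochondrial genome). UQCRQ, a small subunit bound near cytochrome b, had the highest ratio with both hairpins, 253 FPKM with shRNA63 against 189 FPKM in its control, and 251 FPKM with shRNA95 against 183 FPKM in its control. Its fold changes in the authors' deposited tables were 0.42 ± 0.25 (q = 0.265) and 0.46 ± 0.25 (q = 0.200). UQCRC2, a core protein of the matrix side, was lowest with shRNA63, 198 FPKM against 260.3 FPKM in its control, and measured 248 FPKM with shRNA95 against 252 FPKM in its control. UQCRFS1, the Rieske iron-sulfur protein, was lowest with shRNA95, 42.5 FPKM against 44.8 FPKM in its control.

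In complex IV, counted without NDUFA4, 10 of 10 nuclear subunits had ratios above 0 with shRNA95 (9 of 10 under equal summed FPKM outside the mitochondrial genome), with a median of 0.31 (0.12 under that scaling). With shRNA63, 8 of 10 did (5 of 10 under that scaling), with a median of 0.069 (0.034 under that scaling). COX6C, a small subunit, was highest with both hairpins, 479.7 FPKM with shRNA63 against 370.2 FPKM in its control, and 498 FPKM with shRNA95 against 359 FPKM in its control. Log2 fold changes of COX6C were 0.37 ± 0.31 and 0.47 ± 0.30 in the authors' deposited tables, and did not pass the test. COX6A1, the form of its subunit found outside muscle, was lowest with shRNA63, 279 FPKM against 309 FPKM in its control. COX5B, a zinc-binding subunit, was lowest with shRNA95, 110.0 FPKM against 109 FPKM in its control.

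In complex V the medians were -0.12 with shRNA63 and 0.090 with shRNA95 (-0.10 with shRNA95 under equal summed FPKM outside the mitochondrial genome). ATP5A1, the alpha subunit of the catalytic head, was lowest with shRNA63, 726 FPKM against 1039.7 FPKM in its control (-0.52 ± 0.32, q = 0.205 in the authors' deposited table), and measured 946 FPKM with shRNA95 against 1008 FPKM in its control. ATP5C1, the gamma subunit of the rotor, was lowest with shRNA95, 512 FPKM against 610.2 FPKM in its control (-0.25 ± 0.21, q = 0.807 in the authors' deposited table). ATP5O, a stalk subunit that holds the catalytic head still, was highest with both hairpins, but its errors in the authors' deposited tables were wide, 1.92 with shRNA63 and 1.88 with shRNA95 from the statistic and 0.88 and 0.90 as the p implies. It shares its locus in the tables with other genes.

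Set side by side, the mitochondrial members had a median ratio of 0.44 with shRNA63, which is 0.44 above that of the nuclear members. With shRNA95 their median was 0.46, which is 0.22 above that of the nuclear members. These gaps do not depend on how the libraries were scaled, because a common factor moves both sets alike. They do depend on which mitochondrial members are counted. Without the 11 that have a nuclear copy in the tables, MT-ND3 and MT-CYB were left, and the gap was 0.058 with shRNA95 (mitochondrial median 0.30) and 0.44 with shRNA63. With shRNA63, 26 of the 42 nuclear ratios lay below the lowest mitochondrial one and 0 lay above the mitochondrial median. With shRNA95, 14 lay below the lowest mitochondrial ratio, 4 lay above the mitochondrial median and 0 above the highest. Members share their libraries and are not replicates, so these are descriptions with no test. The gap between genomes was wider with shRNA63, where the nuclear members centred on 0, than with shRNA95, where they lay mostly above it; this difference between hairpins was not tested.

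**Figure D3:**
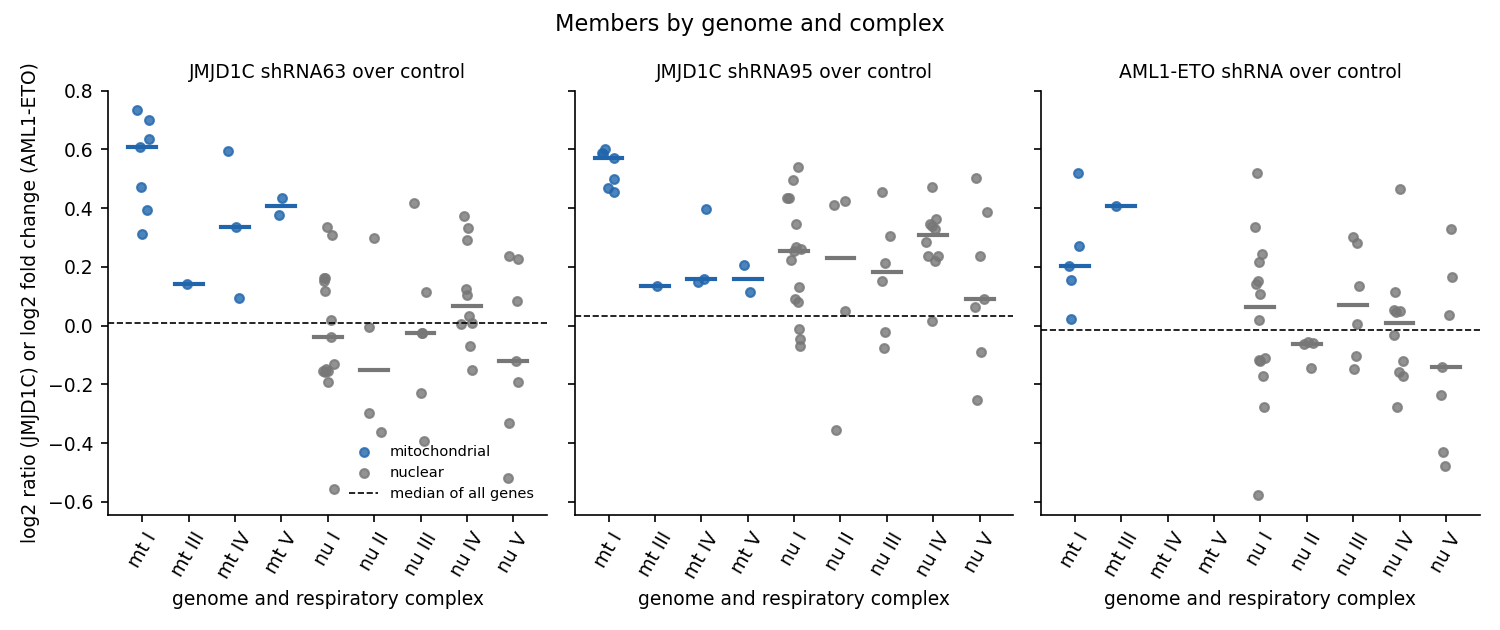
Each point is 1 member, by genome (mt, mitochondrial; nu, nuclear) and complex, as log2 ratio for both JMJD1C hairpins and as log2 fold change of the authors' deposited table for AML1-ETO shRNA, with a bar at each median and a dashed line at the median of all genes. With shRNA63 the mitochondrial points lie above 0 and the nuclear ones centre on it (medians 0.44 and -0.00024); with shRNA95 the medians are 0.46 and 0.24, and 4 mitochondrial points turn negative under equal summed FPKM outside the mitochondrial genome.

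How much of the gap to control is seen with shRNA95 depended on the scaling. With the median of all measured genes set to 0, 13 of 13 mitochondrial members lay above 0 with shRNA95, at a median of 0.42. Of the nuclear members, 33 of 42 then lay above 0 with shRNA95, at a median of 0.21. When FPKM was rescaled so that genes outside the mitochondrial genome summed to the same total, the median of all genes moved by -0.17, to -0.14. On that scale 9 of 13 mitochondrial members lay above 0 with shRNA95, at a median of 0.26, and the nuclear median was 0.047. With shRNA63 the same rescaling moved the median of all genes by -0.031 and left 13 of 13 mitochondrial members above 0. Over the members, complexes and further lists it moved medians by -0.035 to -0.030 with shRNA63 and by -0.19 to -0.17 with shRNA95. Taken as FPKM times annotated length, the 13 mRNAs made up an estimated 4.395% of fragments with shRNA63 against 3.24% in its control. With shRNA95 the estimate was 3.93%, against 3.14% in its control. This estimate carries the authors' scaling within each comparison, so it is not a true share of fragments. The same control libraries gave 3.24% beside shRNA63 and 3.14% beside shRNA95. Without MT-ATP8 and MT-ND4L, whose short length makes FPKM least certain, the estimates were 3.45% with shRNA63 against 2.55% in its control. With shRNA95 they were 3.14%, against 2.48% in its control. As a share of summed FPKM, the gap to control was much smaller with shRNA95. That sum includes the mitochondrial tRNAs, very short RNAs whose FPKM is uncertain. With shRNA95 the sum was 1.435e+06, against 1.251e+06 in its control. MT-TA alone measured 102231 FPKM with shRNA95 against 80315 FPKM in its control, and MT-TS1 measured 57366 FPKM against 77334 FPKM. The 13 mRNAs made up 5.90% with shRNA63 against 4.39% in its control, and 4.65% with shRNA95 against 4.39% in its control. Without MT-ATP8 and MT-ND4L the mRNA shares were 2.82% with shRNA63 against 2.097% in its control, and 2.32% with shRNA95 against 2.098% in its control.

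The hairpins were compared member by member through the difference of their log2 fold changes. None of the 55 members differed at an adjusted p under 0.05, where 1.08% of 13870 genes did, and 1 had an unadjusted p under 0.05, where 5.44% of genes did. That member was SDHB, with a difference of -0.79 ± 0.36 between shRNA63 and shRNA95 (p = 0.0271 and adjusted p = 0.673 from a two-sided normal test with Benjamini-Hochberg adjustment over all genes, as an exact test would need a value per library). For this test, an error below the 10th percentile of errors was raised to that floor. Both errors of SDHB, 0.22 with each hairpin, were raised in this way. Every mitochondrial member except MT-ND4, MT-CO3 and MT-ATP6 had the same ± of 0.36, set by the floor and not by its own errors. Without the floor, 0 members passed (smallest adjusted p of a member 0.243 from the same test), where 2.14% of genes did. The errors also treat the shared controls as independent, which makes them too wide. The differences of the mitochondrial members had a median of 0.14, with 4 of 13 below 0. Those of the nuclear members had a median of -0.21, with 36 of 42 below 0, beside a median of -0.039 over all genes.

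The mitochondrial genome also encodes 2 rRNAs of the organelle's own ribosome and 22 tRNAs. MT-RNR1, the small ribosomal RNA, rose with both hairpins, to 2843 FPKM with shRNA63 against 1610.3 FPKM in its control and to 3797 FPKM with shRNA95 against 1559.6 FPKM in its control. The log2 fold changes were 0.82 ± 0.23 (q = 0.00214) and 1.28 ± 0.26 (q = 0.00216) in the authors' deposited tables. MT-RNR2, the large ribosomal RNA, which the tables list under the name of a microRNA within it, measured 1115 FPKM with shRNA63 against 1143 FPKM in its control (-0.04 ± 0.19 in the authors' deposited table). With shRNA95 MT-RNR2 rose to 2075 FPKM, against 1108 FPKM in its control (0.91 ± 0.21, q = 0.00216 in the authors' deposited table). Of the 22 mitochondrial tRNAs, which are 59 to 75 bases long, 2 were called lower with shRNA63, and 2 lower and 1 higher with shRNA95, in the authors' deposited tables. Of all tested genes, 2.83% were called lower with shRNA63, and 1.82% lower and 2.59% higher with shRNA95. MT-TM, the methionine tRNA, measured 4984 FPKM with shRNA63 against 11601 FPKM in its control, and 4269 FPKM with shRNA95 against 11247 FPKM in its control. MT-TD, the aspartate tRNA, measured 1579 FPKM with shRNA63 against 5783 FPKM in its control, and 1805 FPKM with shRNA95 against 5605 FPKM in its control. The tRNA called higher with shRNA95 was MT-TP, the proline tRNA, at 17498 FPKM against 10622 FPKM in its control. The 22 had median log2 fold changes of 0.016 with shRNA63 and 0.35 with shRNA95 in the authors' deposited tables, and FPKM of RNAs this short is uncertain.

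Copies of mitochondrial genes in the nuclear genome can take reads from the members or give reads to them. In total, 15 copies reached 1 FPKM in some group, and all members except MT-ND3 and MT-CYB have at least 1 among them. They match the mitochondrial gene at 91.7% to 98.7% of aligned bases. The copy MTND4P12 on chromosome 5 measured 153 FPKM with shRNA63 against 97.5 FPKM in its control and was called higher (0.65 ± 0.19, q = 0.0446 in the authors' deposited table). With shRNA95 it measured 138 FPKM, against 94.6 FPKM in its control (0.54 ± 0.20, q = 0.165 in the authors' deposited table). These are close to the 0.64 and 0.50 of MT-ND4 in the authors' deposited tables. MTND4P12 differs from MT-ND4 at 59 of 1377 aligned bases. The stretch that differs most, bases 51 to 170 of both genes, is shown with the differing bases in capitals (bases 10810 to 10929 of the mitochondrial genome, plus strand, and chr5:134927867-134927986, minus strand, GRCh38).

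MT-ND4, bases 51 to 170: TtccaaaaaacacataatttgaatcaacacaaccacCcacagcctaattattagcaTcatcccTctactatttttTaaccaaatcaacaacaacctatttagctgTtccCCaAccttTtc

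MTND4P12, bases 51 to 170: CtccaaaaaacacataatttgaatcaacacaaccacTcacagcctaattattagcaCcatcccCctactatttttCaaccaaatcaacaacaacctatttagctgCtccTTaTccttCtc

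Runs of identical bases separate the differences, and a read within such a run would fit both genes. Whether reads were short enough to lie within such a run was not examined. The most abundant copies were MTATP8P1, at 2246 FPKM with shRNA63 against 1691 FPKM in its control, and MTCO3P12, at 1073 FPKM with shRNA63 against 1031 FPKM in its control. MT-ND3, which has no copy at 1 FPKM, was among the members called with shRNA63, and MT-CYB was not called with either hairpin.

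The promoters of the nuclear members were read from RefSeq (GRCh38.p14, from 250 bases before to 50 bases after the start) for 34 of the 42. At least 1 of 3 motifs known from genes of respiratory chain subunits, searched on both strands, was found in 19 of 34 (55.9%), against 17.0% of all 27305 promoters. The NRF1 motif, GCGCA and GCGC set 1 base apart, was in 20.6% of the members' promoters against 6.28% of all. CCGGAAG, of the ETS family to which GABPA belongs, was in 35.3% against 10.7%, and AAGATGGCG, of YY1, was in 11.8% against 1.85%. The last can overlap the ETS letters by AAG. These matches describe letters only. The promoters of the nuclear member with the largest difference between hairpins, SDHB (chr1:17053983-17054282, minus strand), and of that with the lowest q, NDUFA1 (chrX:119871582-119871881, plus strand), are shown with the motif letters in capitals. SDHB holds the ETS and YY1 letters, and NDUFA1 holds the ETS letters as their reverse complement.

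SDHB promoter: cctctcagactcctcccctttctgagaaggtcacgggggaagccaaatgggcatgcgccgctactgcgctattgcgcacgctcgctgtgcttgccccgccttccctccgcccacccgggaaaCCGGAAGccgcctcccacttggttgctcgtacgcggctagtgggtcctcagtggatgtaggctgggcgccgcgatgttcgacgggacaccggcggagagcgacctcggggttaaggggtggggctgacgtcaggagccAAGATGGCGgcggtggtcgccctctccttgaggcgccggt

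NDUFA1 promoter: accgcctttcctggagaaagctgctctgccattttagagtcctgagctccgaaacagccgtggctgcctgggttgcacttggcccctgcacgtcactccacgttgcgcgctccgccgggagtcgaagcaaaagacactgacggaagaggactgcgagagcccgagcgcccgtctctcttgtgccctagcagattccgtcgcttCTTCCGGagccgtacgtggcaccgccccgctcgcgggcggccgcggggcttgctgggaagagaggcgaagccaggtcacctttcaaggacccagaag

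In the authors' deposited table for AML1-ETO shRNA, 0 members were called, where 0.411% of 22406 tested genes were, and 0 had an unadjusted p under 0.05, where 6.67% did. There, 7 of the 13 mitochondrial mRNAs (MT-CO1, MT-CO2, MT-CO3, MT-ND4, MT-ND4L, MT-ATP6 and MT-ATP8) have no estimate and carry the status that Cuffdiff gives to loci with too many fragments. The other 6 had log2 fold changes of 0.023 to 0.52 with a median of 0.24 in the authors' deposited table. MT-ND6 was highest, at 0.52 in the authors' deposited table. The error from its statistic, 0.19, is narrower than the deposited p implies. The 41 nuclear members with an estimate had a median of -0.031, 20 above and 21 below 0, in the authors' deposited table, where all genes had a median of -0.014. RUNX1T1, a part of the targeted fusion, had -1.04 ± 0.87 in the authors' deposited table. With 1 library a group there is no replicate check, and the test compares those libraries, not the conditions.

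Further subunits and factors of the organelle were read from lists that the 55 members do not include. Of all tested genes, 2.29% were called higher and 2.83% lower with shRNA63, and 2.59% higher and 1.82% lower with shRNA95. Counts called in the lists here and below stand beside these shares. No list was tested as a set, and a single call is not a result about its list. Of 23 other complex I subunits, 0 were called with shRNA63 (median log2 ratio 0.12) and 1 rose with shRNA95 (median 0.30, 23 of 23 above 0, or 0.11 and 16 of 23 under equal summed FPKM outside the mitochondrial genome). That 1 was NDUFA13, also known as the cell death factor GRIM-19, at 313 FPKM with shRNA95 against 199 FPKM in its control (0.65 ± 0.22, q = 0.0222 in the authors' deposited table). Of 16 tested other subunits of complexes III to V, 0 were called with either hairpin, with medians of 0.061 with shRNA63 and 0.34 with shRNA95 (0.026 and 0.15 under that scaling, 13 of 16 above 0 with shRNA95). Among 38 assembly factors 1 was called: NDUFAF2, which helps to finish complex I, fell to 32.8 FPKM with shRNA63, against 48.9 FPKM in its control (-0.58 ± 0.27, q = 0.0492 in the authors' deposited table). With shRNA95 NDUFAF2 measured 68.1 FPKM, against 47.4 FPKM in its control (0.52 ± 0.26, q = 0.0916 in the authors' deposited table).

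Of 36 tested genes of mitochondrial transcription, replication and RNA processing, 1 was called, with both hairpins. HSD17B10, a dehydrogenase of isoleucine breakdown that is also a subunit of the RNase P that cuts tRNAs out of mitochondrial transcripts, measured 77.6 FPKM with shRNA63 against 27.5 FPKM in its control. With shRNA95 it measured 97.0 FPKM, against 26.6 FPKM in its control. The log2 fold changes were 1.498 ± 0.23 (q = 0.00214) and 1.87 ± 0.23 (q = 0.00216) in the authors' deposited tables. In the authors' deposited table for AML1-ETO shRNA it had 1.63 ± 0.52 (q = 0.353). With it, the list had median ratios of -0.064 with shRNA63 and 0.035 with shRNA95. Of 12 tested nuclear regulators of mitochondrial biogenesis 0 were called, with medians of -0.053 with shRNA63 and -0.056 with shRNA95 (-0.086 and -0.23 under equal summed FPKM outside the mitochondrial genome).

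In the tricarboxylic acid cycle and pyruvate dehydrogenase list, 2 of 26 genes fell with shRNA63 and 0 were called with shRNA95. PDHA1, the catalytic alpha subunit of pyruvate dehydrogenase, measured 74.5 FPKM with shRNA63 against 215 FPKM in its control (-1.53 ± 0.22, q = 0.00214 in the authors' deposited table). With shRNA95 PDHA1 measured 239 FPKM, against 208 FPKM in its control (0.20 ± 0.20 in the authors' deposited table). PDHX, which tethers another subunit of the same complex, measured 18.3 FPKM with shRNA63 against 34.6 FPKM in its control (-0.92 ± 0.39, q = 0.0424 in the authors' deposited table). Of 77 tested proteins of the mitochondrial ribosome, MRPS2 fell with shRNA63 (-0.72 ± 0.30, q = 0.0124) and MRPL24 rose with shRNA95 (0.72 ± 0.28, q = 0.0104) in the authors' deposited tables. Of 26 tested protein import genes, TOMM6, a small subunit of the outer membrane pore, rose with shRNA95 (0.67 ± 0.28, q = 0.0186 in the authors' deposited table). Under equal summed FPKM outside the mitochondrial genome, the median ratio with shRNA95 turned negative for the ribosome (0.15 and then -0.029), import (0.16 and then -0.029), assembly (0.14 and then -0.037), transcription (then -0.15) and tricarboxylic acid cycle lists (0.046 and then -0.13).

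**Figure D4:**
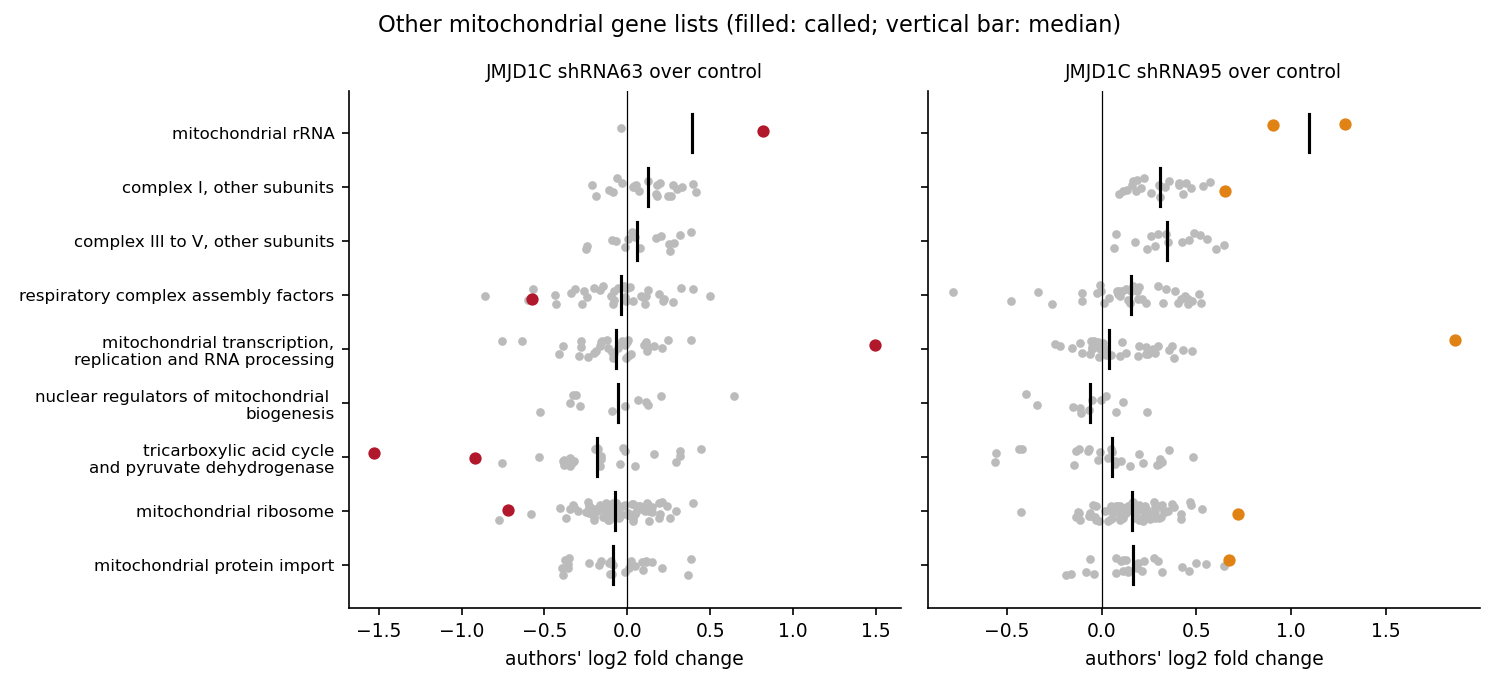
Log2 fold changes from the authors' deposited tables of the genes in 9 further lists, with coloured points at q under 0.05, grey points otherwise and a vertical bar at each list's median. HSD17B10 lies far to the right with both hairpins (1.498 and 1.87), and PDHA1 lies far to the left with shRNA63 (-1.53).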

How the data were processed

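RNA was sequenced from 6 libraries of Kasumi-1 cells, 2 for each of 3 groups named in the sample titles. The submitters' processing notes name TopHat2 2.0.8b, Cuffdiff 2.1.1 and hg19, without roles. Per the file headers, the 3 deposited tables are Cuffdiff gene comparisons. They hold FPKM, 1 value a group, scaled by the authors within each table (at the median, a gene's control FPKM was 1.03 times as high in the table of shRNA63 as in that of shRNA95). They also hold the authors' log2 fold change, test statistic (a score) and p-value with adjusted q-value, as deposited. The smallest deposited p is 5e-05. In the AML1-ETO table, 2 FPKM columns come from another series and stayed out. As no counts were used, the depth behind a value is unknown. The labels used here do not state strandedness.

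A gene was called at status OK and q under 0.05. Ratios were log2((FPKM + 1)/(FPKM + 1)) over tested genes of at least 1 FPKM in the higher group. For the difference between hairpins, errors had the 10th percentile as their floor. Sequences came from GENCODE v29 and RefSeq. Python 3.11.15, pandas 2.3.3, SciPy 1.17.1 and Biopython 1.88 were used. Named genes are all 13 mitochondrial members, nuclear members that were called or highest or lowest in their complex, and called genes of the other lists. The members and lists were chosen with earlier results of these data known. The alternatives tried were other thresholds, p-values, filters, pseudocounts, scalings, error models and subsets of members.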

Additional observations from a re-analysis of the deposited data

How the results depend on the processing

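Of 101 counts and medians under other settings, 5 moved, by over 1.5 times for a count or by more than the members' median error for a median. That error is wide beside the medians, and 8 of the 54 medians lay over 1.5 times from the reported one. With shRNA95, leaving out mitochondrial members with a nuclear copy gave a mitochondrial median of 0.30 and a gap to the nuclear median of 0.058 (0.46 and 0.22 as reported). With shRNA63 the nuclear median of -0.00024 turned to 0.0076 at 50 FPKM or more, and was -0.035 to -0.0080 under both other scalings and as a mean. At q under 0.01 the mitochondrial mRNAs called higher numbered 2 with shRNA63 (MT-ND2 and MT-ND3; 4 at q under 0.05) and 0 with shRNA95 (4 at q under 0.05). At q under 0.1, 1 nuclear member was called with shRNA95, NDUFA1 (0 at q under 0.05). Under equal summed FPKM outside the mitochondrial genome, the median ratio with shRNA95 was 0.26 for the mitochondrial members and 0.047 for the nuclear ones (0.24 as reported); that scaling moves every gene. With the part of the errors that comes from the shared controls removed, 1 member, SDHB, differed between hairpins, among 587 genes in place of 150 (adjusted p = 0.0440 from the two-sided normal test, which is not exact; smallest adjusted p of a member under the 3 other settings 0.143 to 0.673). With p-values taken from a normal distribution of the deposited statistic, MT-ND4L and MT-ATP8 were called with shRNA63 and MT-ND4 was not, while with shRNA95 MT-ND3 was called and MT-ND5 was not.

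No paired analysis was possible because the tables hold 1 value per group and none per library. For the same reason leaving out each library in turn was not run, so whether 1 library decides a call is not known. The errors that the deposited p implies for the nuclear members had a median of 0.208 on the log2 scale with both hairpins and reached 0.903, which limits what can be detected in them. The shRNA95 libraries showed no detectable loss of JMJD1C mRNA, which limits what their comparison says about the target.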
